A study of Mus musculus with 18 samples.

Results

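The genes described here encode receptor chains for interleukin-18 (Il18r1 and Il18rap), interleukin-12 (Il12rb1 and Il12rb2), interleukin-10 (Il10ra and Il10rb) and interleukin-27 (Il27ra), with the ligand-binding chain of the interferon-γ receptor (Ifngr1). They were taken by symbol from a table of 46078 genes, and all 8 were found, each as a single entry. All 8 also passed the filter on low counts, which left 14714 genes for testing. Each library was made from bulk RNA of 200 sorted cells, and the mice were of the C57BL/6 strain and 8 weeks of age. Every mouse carried Ncr1-Cre, in which the promoter of the NKp46 gene drives Cre recombinase. The RARa403 mice also carried Rosa26-RARα403, a dominant negative form of retinoic acid receptor α at the Rosa26 locus. The 6 groups of 3 libraries were liver ILC1s (type 1 innate lymphoid cells), spleen ILC1s and liver NK (natural killer) cells, each from Ncr1-Cre control mice and from RARa403 mice. The sort kept CD3-negative NK1.1+ NKp46+ cells. ILC1s were taken as positive for CD49a and the interleukin-7 receptor and low in CD49b, and NK cells as CD49b-positive without CD49a. Genes of those sort markers are therefore no finding here. The labels do not state which libraries came from the same animal, so p-values measure the spread between libraries. The library codes do share digits across the populations, as described below.

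Interleukin-12 and interleukin-18 are the classical pair of cytokines that make ILC1s and NK cells release interferon-γ. Interleukin-12 binds a dimer of IL-12Rβ1 and IL-12Rβ2 and signals through JAK2, TYK2 and STAT4, and the β1 chain also serves the interleukin-23 receptor. Interleukin-18 is bound by IL-18Rα (Il18r1), which recruits the accessory chain IL-18Rβ (Il18rap) and signals through MyD88 to NF-κB. Interleukin-10 uses IL-10Rα with the widely shared IL-10Rβ, and interleukin-27 uses IL-27Rα with gp130, both through JAK1 and STAT proteins. The receptor of interferon-γ itself pairs Ifngr1 with Ifngr2 and signals through JAK kinases.

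In GENCODE annotation of mm10 all 8 genes are protein coding. Il18r1 (ENSMUSG00000026070, chr1:40465552-40500854, + strand) and Il18rap (ENSMUSG00000026068, chr1:40515362-40551705, + strand) are neighbours, with 14507 bases between the end of the former and the start of the latter. Il12rb1 (ENSMUSG00000000791) lies at chr8:70808449-70821424 on the + strand. Il12rb2 (ENSMUSG00000018341) lies at chr6:67291318-67376188 on the - strand. Il10ra (ENSMUSG00000032089) lies at chr9:45253837-45269149 on the - strand, and Il10rb (ENSMUSG00000022969) at chr16:91406164-91425834 on the + strand. Il27ra (ENSMUSG00000005465) lies at chr8:84030294-84042589 on the - strand, and Ifngr1 (ENSMUSG00000020009) at chr10:19591949-19610229 on the + strand. Exons of Il12rb2 share 1519 bases, 40% of its exon length, with Serbp1 on the other strand, which had 733 to 4943 counts per library. The sources used here do not say whether the counting used strand, so the level of Il12rb2 is uncertain. Il10rb shares 569 exon bases with Gm21970 on its own strand, which had 0 counts in every library, and Il27ra shares 2 bases with Palm3.

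Upstream sequences from the RefSeq promoter table (GRCm38.p6) covered 4 of the 8 genes, Il18r1, Il18rap, Il12rb2 and Ifngr1. The 250 bases before the annotated start are printed for 3 of them, 5′ to 3′ on the gene's strand. The neighbours Il18r1 and Il18rap are shown because they encode the 2 chains of 1 receptor and gave the largest RARa403 differences of the 8 genes in liver ILC1s, and Il12rb2 because it carried the single STAT match among these 3 windows. Capitals mark motif matches.
Il18r1, chr1:40465302-40465551, + strand: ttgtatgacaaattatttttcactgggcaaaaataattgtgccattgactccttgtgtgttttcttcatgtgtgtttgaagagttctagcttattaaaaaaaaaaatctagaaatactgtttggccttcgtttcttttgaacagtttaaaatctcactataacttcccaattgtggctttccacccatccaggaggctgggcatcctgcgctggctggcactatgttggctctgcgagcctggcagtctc
Il18rap, chr1:40515112-40515361, + strand: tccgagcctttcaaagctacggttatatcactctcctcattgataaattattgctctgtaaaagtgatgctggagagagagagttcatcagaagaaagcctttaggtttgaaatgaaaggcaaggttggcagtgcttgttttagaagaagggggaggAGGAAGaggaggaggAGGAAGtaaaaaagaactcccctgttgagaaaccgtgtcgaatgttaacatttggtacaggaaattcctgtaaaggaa
Il12rb2, chr6:67376189-67376438, - strand: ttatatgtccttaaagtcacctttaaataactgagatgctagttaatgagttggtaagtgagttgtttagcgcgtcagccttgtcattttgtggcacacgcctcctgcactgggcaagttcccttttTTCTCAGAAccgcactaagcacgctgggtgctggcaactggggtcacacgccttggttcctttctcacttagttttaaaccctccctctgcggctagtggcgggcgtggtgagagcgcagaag
The letters searched on both strands were GGTGTGA (T-box), TGTGGTT (RUNX), TTCNNNGAA (STAT), AGGTCA and GGTTCA (retinoic acid receptor) and AGGAAG (ETS). The Il12rb2 window held TTCTCAGAA, a match to the STAT letters, 123 bases before the start, and the Il18rap window held 2 ETS matches, 93 and 78 bases before the start. The window of the first Il18r1 start and that of Ifngr1 held none of the 6 motifs. The third Il18r1 start in RefSeq, at chr1 position 40466006, had 2 STAT matches (TTCTGGGAA and TTCCCAGAA) and 1 ETS match in its 250 bases, which lie inside the gene and are not printed. No window of these 4 genes held the retinoic acid receptor letters. Of 32851 RefSeq windows of that length, 7.02% held the STAT letters, 29.5% the ETS letters, 14% AGGTCA, 8.85% GGTTCA, 3.33% the T-box letters and 4.4% the RUNX letters. These matches describe the letters and are no evidence of binding.

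The libraries held 3452279 to 9038767 counts, and 3 counts, used as the floor, correspond to 0.332 to 0.869 CPM, a unit in which all libraries have an equal total. The receptor genes lay far above it, with 166 counts for Il12rb1 as the lowest value in any library. Liver NK RARa403 library 1 stood apart. Its mean correlation with its own group was 0.633, and 186 of 2684 genes (6.93%) that exceeded 50 CPM in all other libraries had 3 counts or fewer there, against 0 genes in each of the other 17. Results that rest on it are given with and without it. The targeted locus was examined through Gt(ROSA)26Sor, its noncoding transcript. Counts of it ranged from 104 to 1260 across the 9 control libraries and from 0 to 10 in RARa403 libraries 2 and 3 of the 3 populations. On the log2 CPM scale the control libraries held 4.51 to 7.25. The ILC1 libraries labelled RARa403 library 1 held 5.98 in liver and 5.83 in spleen, inside that range, so the RARa403 comparisons were repeated with libraries 2 and 3 alone. The codes of all libraries numbered 1 begin with 1, and those of libraries 2 and 3 begin with 2. Libraries 2 and 3 alone are therefore the set whose codes begin with 2. Liver NK RARa403 library 1 and the ILC1 libraries labelled RARa403 library 1 lie in the other set. The labels do not say what the leading digit stands for. Rara did not separate the genotypes, at 4.51 to 5.81 log2 CPM in all libraries other than liver NK RARa403 library 1 (8.75). Ncr1 was high in every group, with group means of 11.12 to 11.51 log2 CPM. Cxcr6, which marks ILC1s, was at 10.13 ± 0.09 in control liver ILC1s against −1.44 ± 0.45 in control liver NK cells (SD, n = 3). The RARa403 NK libraries were less uniform. Cxcr6 had 0 to 88 counts there against 0 to 2 in control NK cells. Itga1, which encodes the CD49a used to exclude ILC1s, had 1 to 798 against 0 to 37, with the highest count in NK RARa403 library 1. The part of this in the results on NK cells was not tested.

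Compared per length of exon, Ifngr1 was the most abundant of the 8 transcripts in each group, with group means of 294 to 568 CPM per kilobase, and Il12rb1 the least, with 8.31 to 29.2. Ifngr1 ranked above 99.5% of tested genes by its mean log2 CPM, and Il18rap above 98.6%. The partner chain Ifngr2, named here after its values were seen, had at most 71 counts in any library and 0 in at least 1 library of every group. Across the 17 libraries other than liver NK RARa403 library 1, Il18r1 had the widest range, from 6.56 to 9.16 log2 CPM, and Ifngr1 the narrowest, from 9.42 to 10.81. The plot of levels by library shows these values.

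**Figure D1:**
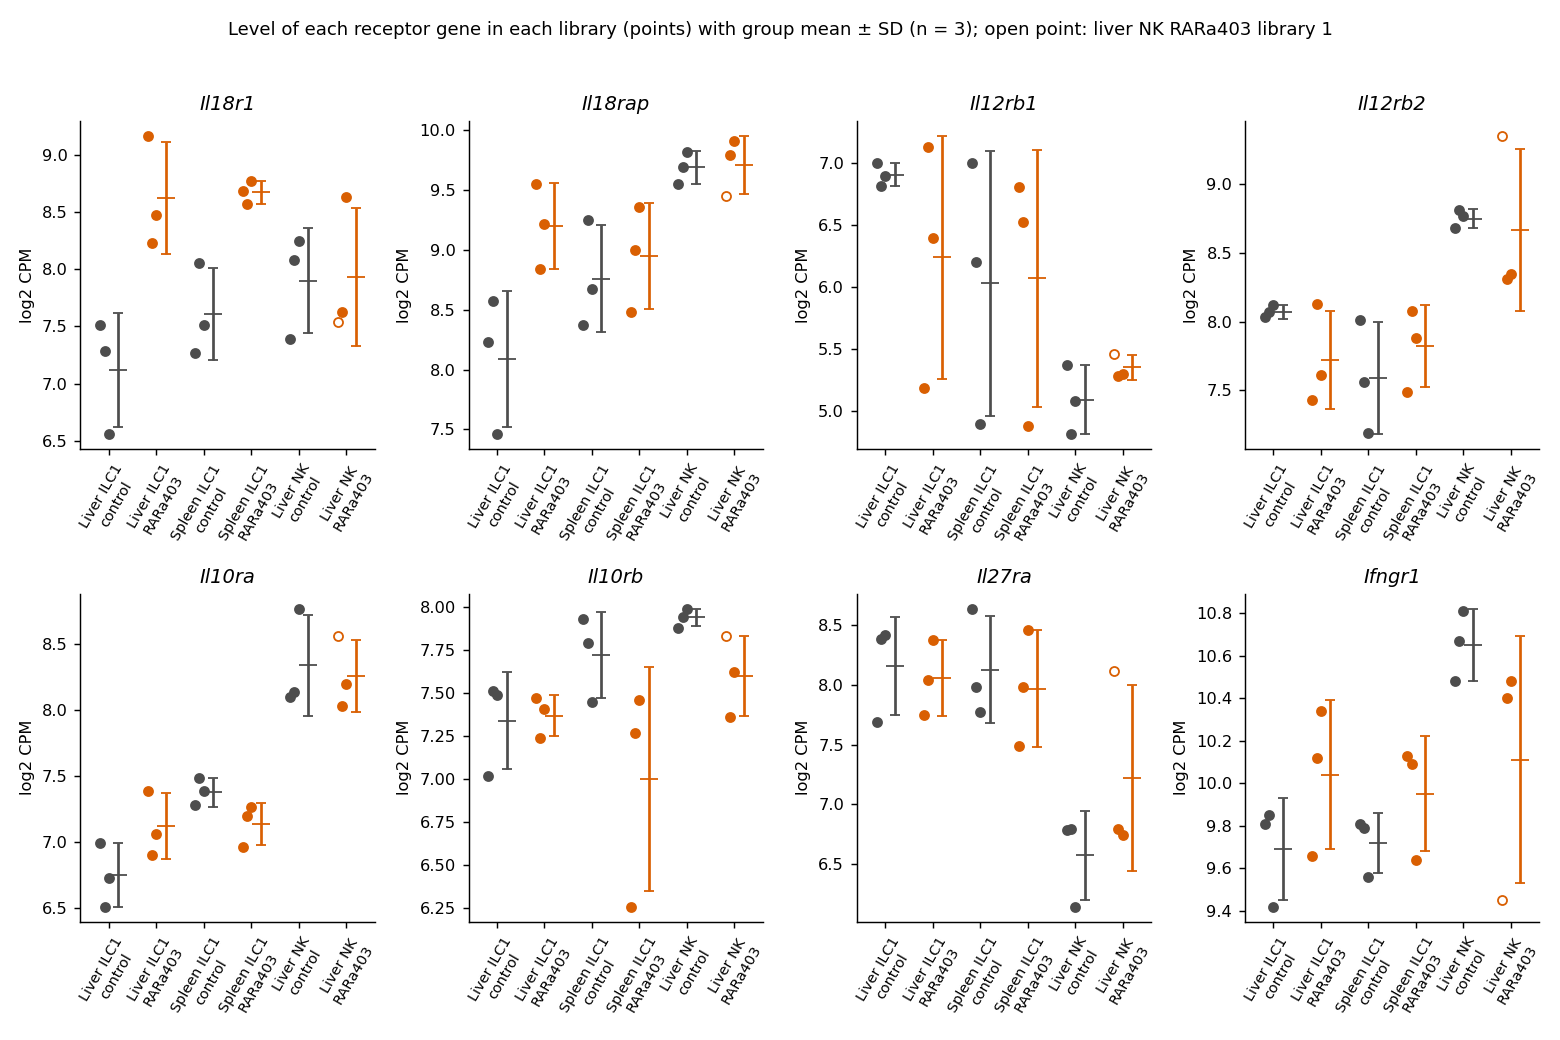
Log2 CPM of the 8 receptor genes (vertical axis, 1 panel per gene with its own scale) in the 18 libraries (points) of 6 groups (horizontal axis), with group mean and SD, n = 3. Il10ra and Il12rb2 were higher in every liver NK library than in any ILC1 library, Il27ra was lower in 5 of the 6 NK libraries, and Il18r1 was higher in RARa403 ILC1s than in control ILC1s of the same tissue.

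Control liver ILC1s and NK cells differed in the balance of these receptors. Every control NK library held more of both IL-10 receptor chains, Il18rap, Il12rb2 and Ifngr1 than any control ILC1 library, and every control ILC1 library more Il12rb1 and Il27ra than any control NK library. For these 7 genes the 3 control ILC1 libraries and the 3 control NK libraries did not overlap, a pattern seen in 16.9% of all genes tested. By edgeR's quasi-likelihood test 2 of 8 passed the threshold of 0.05, Il10ra and Il18rap, both lower in ILC1s. Of all genes tested, 0.605% passed, and 0.177% passed as lower. The remaining gene, Il18r1, overlapped.

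Il10ra, the chain that gives the IL-10 receptor its specificity, was at 6.99, 6.51 and 6.73 log2 CPM in control liver ILC1 libraries 1 to 3 and at 8.10, 8.14 and 8.77 in control NK libraries. Every NK library lay above every ILC1 library by more than 1 log2 unit. The level was 3.06-fold lower in ILC1s, a log2 difference of −1.61 (SE 0.26, adjusted p = 0.0116). In RARa403 mice the ILC1 libraries held 7.39, 6.90 and 7.06 and the NK libraries 8.56, 8.03 and 8.20, again with no overlap, and the difference of −1.15 (SE 0.26) did not pass (adjusted p = 0.0756). Averaged over both genotypes the difference was −1.38 (SE 0.18, adjusted p = 0.000536), and it passed in each of the 12 fits that left out 1 liver library. In control mice alone it passed in 4 of 7 such fits and did not pass without control ILC1 library 2, control ILC1 library 3 or control NK library 3, with adjusted p up to 0.0847. It passed with the replicate number as a block (adjusted p = 0.0277). Il10rb, the shared second chain, differed less, at 7.34 ± 0.28 in control ILC1s and 7.94 ± 0.05 in control NK cells (SD, n = 3), and did not pass (log2 fold change −0.59, adjusted p = 0.651).

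Il18rap, the accessory chain needed for IL-18 signalling, was at 8.23, 8.57 and 7.46 log2 CPM in control liver ILC1s and at 9.55, 9.69 and 9.82 in control NK cells. The groups were separate, and the ILC1 libraries were spread more widely than the NK libraries. It was 2.9-fold lower in ILC1s, a log2 difference of −1.54 (SE 0.32, adjusted p = 0.0401). This call held in 1 of 7 fits that left out a library, the one without NK RARa403 library 1, with adjusted p up to 0.232 in the others, and was lost with the replicate number as a block (adjusted p = 0.0734). Averaged over genotypes the difference was −1.02 (SE 0.23, adjusted p = 0.0266), passing in 5 of 12 fits that left out a library. These were the fits without any single RARa403 NK library, without control ILC1 library 2 and without RARa403 ILC1 library 1. With only the groups compared in the fit it did not pass (adjusted p = 0.051). In RARa403 mice alone the difference was −0.50 (SE 0.32, adjusted p = 0.564) and the groups overlapped. Il18r1, the ligand-binding chain, was at 7.51, 7.29 and 6.56 in control ILC1s and 7.39, 8.08 and 8.25 in control NK cells. NK library 1 fell inside the ILC1 range, and the difference did not pass (−0.78, SE 0.37, adjusted p = 0.634).

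The IL-12 receptor chains lay in opposite directions. Il12rb1 was at 7.00, 6.82 and 6.90 log2 CPM in control liver ILC1s and 5.37, 4.81 and 5.08 in control NK cells, a log2 fold change of 1.81 (SE 0.56) that did not pass (adjusted p = 0.263). Its libraries lay close together in both of these groups, but ranged from 5.18 to 7.13 in RARa403 liver ILC1s and from 4.89 to 7.00 in control spleen ILC1s. Il12rb2, the chain that recruits STAT4, was at 8.03, 8.07 and 8.12 in control ILC1s and 8.68, 8.81 and 8.77 in control NK cells. The tight groups did not overlap, and the difference of −0.68 (SE 0.31) did not pass (adjusted p = 0.611). Averaged over genotypes, neither Il12rb1 (1.46, SE 0.39, adjusted p = 0.072) nor Il12rb2 (−0.84, SE 0.22, adjusted p = 0.059) passed.

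Il27ra, the specific chain of the IL-27 receptor, was at 7.69, 8.39 and 8.42 log2 CPM in control liver ILC1s and 6.78, 6.79 and 6.14 in control NK cells. ILC1s were higher in each library, and the difference of 1.6 (SE 0.41) did not pass in control mice (adjusted p = 0.111). It passed in the mean of both genotypes (1.16, SE 0.28, adjusted p = 0.0431), but not with the replicate number as a block (adjusted p = 0.0731), with RLE scaling (adjusted p = 0.0623) or with only the groups compared in the fit (adjusted p = 0.0985). RARa403 NK library 1, the library that stood apart, held 8.12 against 6.79 and 6.74 in the other NK libraries of that genotype. Without it the mean difference was 1.47 (SE 0.23, adjusted p = 0.00117), and this was the only one of 12 fits without a library in which Il27ra passed. Ifngr1 was at 9.81, 9.85 and 9.42 in control ILC1s and 10.48, 10.67 and 10.81 in control NK cells, with no overlap and a difference of −0.95 (SE 0.27, adjusted p = 0.189).

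In the mean of both genotypes 3 of 8 receptor genes passed, Il10ra and Il18rap as lower and Il27ra as higher in ILC1s, where 2.09% of all genes passed, 0.7% as lower and 1.39% as higher. In RARa403 mice 0 of 8 passed, where 0.401% of all genes did. There, 2 of the 8 genes, Il10ra and Il12rb2, did not overlap between the cell types, against 12.3% of all genes. A fit that omitted liver NK RARa403 library 1 gave smaller standard errors for all 8 genes and 4 of 8 calls in control mice, where 1.75% of all genes passed. These were Il10ra (adjusted p = 0.000751), Il27ra (adjusted p = 0.00875), Il18rap (adjusted p = 0.0107) and Ifngr1 (adjusted p = 0.0114). In the mean of both genotypes it gave 5 of 8, against 3.04% of all genes, adding Ifngr1 (−0.66, SE 0.14, adjusted p = 0.0116) and Il12rb2 (−0.63, SE 0.16, adjusted p = 0.0462). In RARa403 mice the same fit gave 0 of 8, where 0.495% of all genes passed. The plot of differences between liver ILC1s and NK cells shows all 8.

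**Figure D2:**
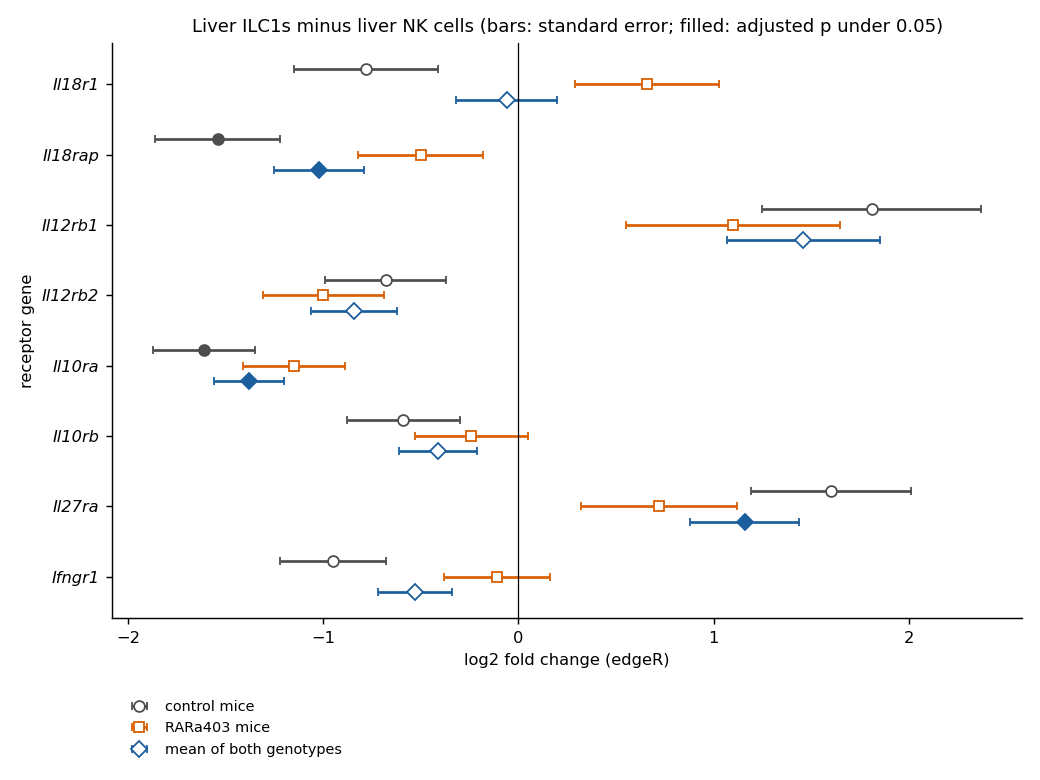
Log2 fold change of liver ILC1s against liver NK cells (horizontal axis) for each receptor gene (vertical axis) in control mice, in RARa403 mice and in the mean of both, from edgeR, with standard errors. Il10ra, Il18rap and Il27ra have filled points in the mean of both genotypes (adjusted p under 0.05), and Il10ra and Il18rap in control mice.

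Markers of T cells moved with the same comparison. The 9 markers summed to 1660 to 1920 CPM in control liver ILC1 libraries and 653 to 711 in control NK libraries. Most of it was Trbc1, with means of 990 and 535 CPM, and Trbc2, with 465 and 129. Cd3e had 51 to 150 counts in control liver ILC1s and 0 to 3 in control NK cells, and Cd3g 814 to 1062 and 0 to 125. In control mice 2 of the 9 T cell markers passed edgeR's test as higher in ILC1s, where 0.605% of all genes passed. In the mean of both genotypes 5 of the 9 did, against 2.09% of all genes. B cell markers summed to 417 to 801 CPM against 226 to 240, most of it Ighm, while Ms4a1 was at 0 in both. Of 10 macrophage and monocyte markers, 7 were at 0 in all RARa403 NK libraries and 5 in all control NK libraries, Csf1r and Adgre1 among them. Cd68 went the other way, with 56 to 65 counts in control NK cells and 1 to 32 in control liver ILC1s. The 10 markers summed to 7.56 to 10.6 CPM in control NK cells and 0.217 to 240 in control liver ILC1s, where Lyz2 had 0 to 1560 counts. Neutrophil markers summed to at most 1.56 CPM in the control and RARa403 liver libraries, hepatocyte markers to 0 to 70.2, dendritic cell markers to 128 to 398 and endothelial markers to 22.7 to 109. Group means in liver were 168 to 328 CPM for Itgax of the dendritic list and 55.3 to 89.5 for Pecam1 of the endothelial list. Xcr1 of the dendritic list passed edgeR's test as higher in ILC1s in the mean of both genotypes (8.27, SE 1.29, adjusted p = 0.0029). The part of other cells in the differences of Il10ra, Il18rap and Il27ra was not tested. In bulk libraries, fewer cells that express a gene and less transcript per cell cannot be told apart.

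Spleen ILC1s were compared with both liver populations. In control mice Il10ra was at 7.28, 7.49 and 7.39 log2 CPM in spleen ILC1s, above all 3 liver ILC1 libraries and below all 3 liver NK libraries. Il27ra, at 8.64, 7.98 and 7.77, overlapped liver ILC1s and lay above each control NK library, and Ifngr1, at 9.81, 9.79 and 9.56, lay below each of them. Against control liver ILC1s, 0 of 8 receptor genes passed edgeR's test, where 0% of all genes passed, and 2 of 8, Il10ra and Il12rb2, did not overlap, against 8.96% of all genes. In that comparison 468 genes had an unadjusted p under 0.05 and DESeq2 called 26, and among the 8 genes Il10ra alone was under 0.05 (log2 fold change 0.63, SE 0.26, unadjusted p = 0.0263, adjusted p = 1). Against control NK cells 0 of 8 passed, where 0.313% of all genes did, and 5 of 8 did not overlap, against 15.9% of all genes. The latter were Il27ra (1.58, SE 0.41, adjusted p = 0.183), Il10ra (−0.98, SE 0.26, adjusted p = 0.21), Il12rb2 (−1.13, SE 0.31, adjusted p = 0.247), Ifngr1 (−0.94, SE 0.27, adjusted p = 0.286) and Il18rap (−0.88, SE 0.32, adjusted p = 0.508). Without liver NK RARa403 library 1 in the fit, 4 of the 8 passed, where 0.93% of all genes did: Il27ra (adjusted p = 0.0132), Il12rb2 (adjusted p = 0.0184), Ifngr1 (adjusted p = 0.0203) and Il10ra (adjusted p = 0.0388). Spleen ILC1 control library 3 held the most B cell marker transcript (2880 CPM) and macrophage marker transcript (482 CPM) of all libraries, and its Il12rb1 level of 4.89 was the lowest of the 3, beside 7.00 and 6.20. Spleen ILC1 RARa403 library 3 held Il12rb1 at 4.88. In its group B cell markers summed to at most 916 CPM and macrophage markers to at most 43.8. Whether other cells bear on the level was not tested.

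The chains of each receptor were also set against each other within a library, as the log2 ratio of their CPM per kilobase. Il12rb1 was the scarcer IL-12 receptor chain in all 18 libraries. The ratio of Il12rb1 to Il12rb2 was −1.28 ± 0.12 in control liver ILC1s and −3.77 ± 0.35 in control NK cells (SD, n = 3), and no NK library of either genotype reached the range of liver ILC1s, whose lowest value was −2.35. The gap reflects both chains, Il12rb1 being higher and Il12rb2 lower in ILC1s, though neither passed edgeR's test in control mice. The level of Il12rb2 is uncertain through its overlap with Serbp1, so this ratio and which chain is scarcer are uncertain too. Il10ra exceeded Il10rb in all 6 NK libraries, with means of 0.52 ± 0.33 in control and 0.78 ± 0.08 in RARa403 cells, and was −0.47 ± 0.51 in control liver ILC1s (SD, n = 3). Il18r1 was scarcer than Il18rap in control cells of each kind, at −0.48 ± 0.29 in liver ILC1s, −0.67 ± 0.05 in spleen ILC1s and −1.30 ± 0.33 in NK cells. In RARa403 spleen ILC1s that ratio was 0.21 ± 0.42, and its lowest library (−0.10) lay above the highest control library (−0.62). Library 1 of that group held 0.68, and libraries 2 and 3 held 0.05 and −0.10. In RARa403 liver ILC1s it was −0.09 ± 0.18 and overlapped the controls. These ratios are descriptions with no test, and the plot of chain balance shows each library.

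**Figure D3:**
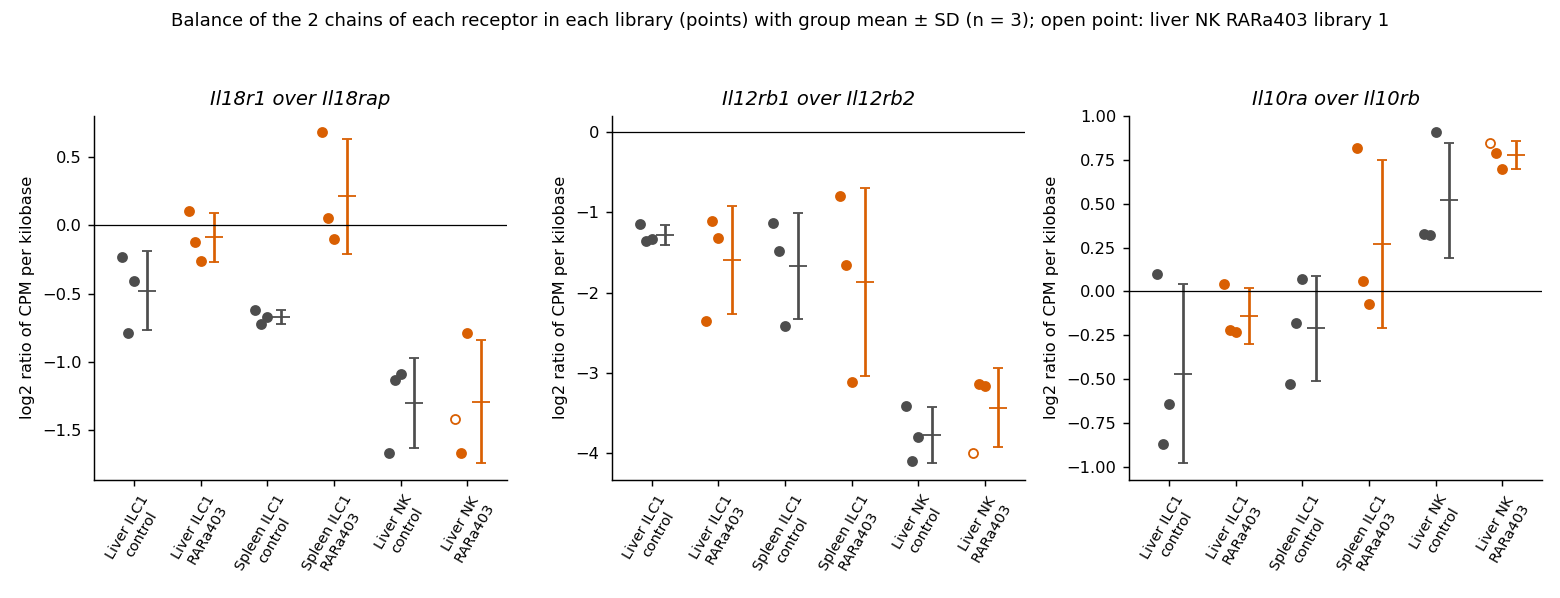
Log2 ratio of the 2 chains of the IL-18, IL-12 and IL-10 receptors in CPM per kilobase of exon (vertical axis) in each library (points) of the 6 groups (horizontal axis), with mean and SD, n = 3. The IL-12 receptor ratio lies between −4.10 and −3.14 in the NK libraries and between −3.11 and −0.80 in the ILC1 libraries.

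RARa403 was compared with control in each population, to ask how a blocked retinoic acid receptor bears on these cells. The IL-18 receptor genes showed the clearest differences. Every RARa403 library lay above the control range for Il18r1 in ILC1s of both tissues and for Il18rap in liver ILC1s, but no receptor gene passed edgeR's adjusted threshold in any population, where 0% of all genes passed. In liver ILC1s 432 genes had an unadjusted p under 0.05 and DESeq2 called 33. In liver NK cells these counts were 1418 and 153, and in spleen ILC1s 425 and 20.

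Il18r1 was at 9.16, 8.23 and 8.47 log2 CPM in RARa403 liver ILC1 libraries 1 to 3, against 7.51, 7.29 and 6.56 in controls. Each RARa403 library lay above each control. The log2 fold change was 1.51 (SE 0.37), with the 4th smallest p of all genes tested (unadjusted p = 0.00096, adjusted p = 1), and DESeq2 called it (adjusted p = 0.0364). In spleen ILC1s Il18r1 was at 8.68, 8.57 and 8.77 against 7.27, 8.05 and 7.51. Again the groups did not overlap, and the log2 fold change was 1.03 (SE 0.37, unadjusted p = 0.013, adjusted p = 1). In liver NK cells RARa403 libraries held 7.54, 7.63 and 8.63 against 7.39, 8.08 and 8.25, with full overlap and a log2 fold change of 0.07 (SE 0.37, adjusted p = 0.989).

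The mean over liver and spleen ILC1s, a comparison added after Il18r1 had been seen to be higher in both, gave 1.27 (SE 0.26), the second smallest p of all genes (unadjusted p = 0.000182). It did not pass either (adjusted p = 0.919), where 0% of all genes passed, 600 had an unadjusted p under 0.05 and DESeq2 called 42. DESeq2 (adjusted p = 0.00166) and edgeR without the filter on low counts (adjusted p = 0.00621) did call Il18r1 there. With libraries 2 and 3 alone, the Il18r1 difference was 1.39 in liver ILC1s, 0.87 in spleen ILC1s and 0.03 in liver NK cells. The direction in ILC1s was therefore the same without the libraries labelled RARa403 library 1, whose Gt(ROSA)26Sor was inside the control range.

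Il18rap was at 9.55, 8.84 and 9.22 in RARa403 liver ILC1s against 8.23, 8.57 and 7.46 in controls. The lowest RARa403 library lay above the highest control, and the log2 fold change was 1.08 (SE 0.32, unadjusted p = 0.00401, adjusted p = 1). In spleen ILC1s the difference was 0.18 (SE 0.32, adjusted p = 1) and in liver NK cells 0.04 (SE 0.32, adjusted p = 1), with overlap in both. Il18r1 and Il18rap were 2 of 8 genes without overlap in liver ILC1s, against 9.51% of all genes. In spleen ILC1s the 2 were Il18r1 and, in the other direction, Il10ra (−0.24, SE 0.26, adjusted p = 1), against 8.98% of all genes.

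Whether the RARa403 effect differed between populations was tested as an interaction. Between liver ILC1s and liver NK cells the effects on Il18r1 differed by 1.43 (SE 0.52, unadjusted p = 0.014), on Il18rap by 1.04 (SE 0.45, unadjusted p = 0.0341) and on Ifngr1 by 0.84 (SE 0.38, unadjusted p = 0.041). None of the 3 passed adjustment (each adjusted p = 0.798), and 0% of all genes did, with 913 under an unadjusted 0.05 and 43 called by DESeq2. Without liver NK RARa403 library 1 in the fit no receptor gene passed either, where 0% of all genes did. Between spleen and liver ILC1s the effect on Il18r1 differed by −0.47 (SE 0.52, adjusted p = 1) and on Il18rap by −0.89 (SE 0.45, unadjusted p = 0.0641, adjusted p = 1). There 0% of all genes passed, 397 were under an unadjusted 0.05 and DESeq2 called 18. A difference between populations in the RARa403 effect on either chain was therefore not shown. These comparisons share their control libraries.

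The remaining 6 receptor genes gave RARa403 differences between −0.65 and 0.77 in the 3 populations, and each had adjusted p of 0.547 or more. Il10rb in spleen ILC1s had the largest decrease (−0.65, SE 0.29, unadjusted p = 0.0381, adjusted p = 1), with library 1 at 6.26 and libraries 2 and 3 at 7.27 and 7.46, against 7.93, 7.79 and 7.45 in controls. Library 1 lay farthest from the controls and library 3 inside their range. Without RARa403 library 1 the difference was −0.36, and with libraries 2 and 3 of both groups alone −0.27. Il27ra in liver NK cells had the largest increase (0.77, SE 0.40, adjusted p = 0.547), and without RARa403 library 1 it was 0.15 (SE 0.32, adjusted p = 1). Il12rb2 in liver NK cells was at 0.00 (SE 0.31, adjusted p = 1), and at −0.44 (SE 0.25, adjusted p = 1) without that library. The plot of RARa403 differences shows the values of all 8 genes.

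**Figure D4:**
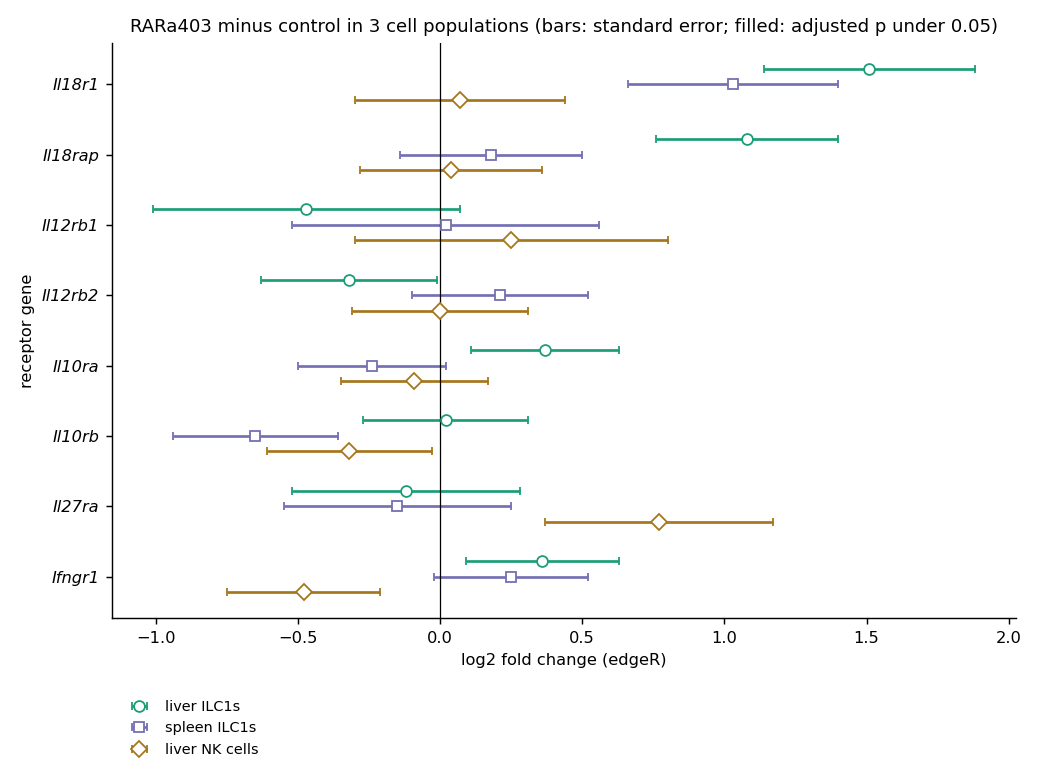
Log2 fold change of RARa403 against control (horizontal axis) for each receptor gene (vertical axis) in liver ILC1s, spleen ILC1s and liver NK cells, from edgeR, with standard errors. All points are open because no value passed the adjusted threshold, and Il18r1 lies at 1.51 in liver ILC1s, 1.03 in spleen ILC1s and 0.07 in NK cells.

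Eomes, a transcription factor that marks NK cells against ILC1s, moved with the IL-18 receptor genes in liver ILC1s. It was at 5.78 ± 1.21 log2 CPM in RARa403 and 3.04 ± 1.82 in control liver ILC1s, and at 9.11 ± 0.05 in control NK cells (SD, n = 3), and the RARa403 difference did not pass (2.37, SE 0.94, adjusted p = 1). Of the other genes that separate the cell types, Zfp683, a transcription factor gene higher in ILC1s, differed by −1.36 and Itga2 by 0.80, both towards NK cells. Il7r differed by 1.32, away from NK cells, while Itga1 differed by −0.53, Itgam by −0.22 and Cxcr6 by −0.13. None of these passed (each adjusted p = 1). In spleen ILC1s, where Il18r1 differed by 1.03, Eomes differed by 0.20 (SE 0.88). There Zfp683 differed by −1.03, Itga2 by −0.02, Il7r by 0.61, Itga1 by −0.48, Itgam by −0.92 and Cxcr6 by 0.31, and none passed. The levels of Il18r1 in RARa403 liver ILC1s, 8.23 to 9.16, overlapped those of control NK cells, 7.39 to 8.25, and reached above them. T cell markers summed to 1620 to 2050 CPM in RARa403 and 1660 to 1920 in control liver ILC1s, and Cd3e had 31 to 769 counts against 51 to 150. The part of NK cells or T cells in these values was not tested.

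The other genes of these pathways were described with lists of related receptor chains, ligands, signalling proteins and target genes. Between liver ILC1s and NK cells, in the mean of both genotypes, 0 of 13 tested related chains passed, where 2.09% of all genes did. The median log2 fold change of these chains was 0.44, against 0.05 for all genes. Il23r, which joins Il12rb1 in the IL-23 receptor, had the smallest p (adjusted p = 0.0838). It was sparse, with 0 to 68 counts in control and 6 to 44 in RARa403 liver ILC1s, 0 in every control NK library and at most 1 in RARa403 NK libraries. Il20ra, a chain for cytokines of the interleukin-20 group, had 0 to 74 counts in control and 41 to 95 in RARa403 liver ILC1s, and at most 25 in NK libraries (adjusted p = 0.382). Of 15 ligands and binding proteins only 3 were expressed enough for the test, and 0 passed. Ifng, the product of IL-12 and IL-18 stimulation, had 0.65 (SE 0.35, adjusted p = 0.445) and Il18bp, the secreted inhibitor of IL-18, at most 120 counts in any library, had 1.21 (SE 1.22, adjusted p = 0.792).

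In the same comparison 0.7% of all genes passed as lower in ILC1s and 1.39% as higher. Of 20 signalling proteins 2 were lower in liver ILC1s than in NK cells and 0 higher (median 0.17). Both were kinases of these receptors, Tyk2 of the IL-12 and IL-10 receptors (−0.98, SE 0.20, adjusted p = 0.0153) and Jak1 of the IL-10, IL-27 and interferon-γ receptors (−0.86, SE 0.21, adjusted p = 0.0399). Of 15 genes induced by IL-12 and IL-18, 2 were higher in ILC1s and 0 lower (median 0.65), the chemokine gene Xcl1 (2.06, SE 0.36, adjusted p = 0.0052) and Il2ra, the high-affinity chain for interleukin-2 (3.70, SE 0.88, adjusted p = 0.0387). Of 21 interferon-γ-induced genes 1 was lower and 0 higher (median 0.47). This was Irf8 (−2.33, SE 0.31, adjusted p = 0.000499), an interferon regulatory factor that NK cells also use in antiviral responses. Xcl1 and Irf8 passed in all 12 fits that left out 1 liver library. Tyk2 passed in 8, failing without control ILC1 library 1, RARa403 ILC1 library 2 or 3 or control NK library 3 (adjusted p up to 0.0694). Jak1 passed in 2, without NK RARa403 library 1 or 2 (adjusted p up to 0.126 in the others). Il2ra passed in 4, without RARa403 ILC1 library 1, NK RARa403 library 1 or control NK library 2 or 3 (adjusted p up to 0.119 in the others). With the replicate number as a block, Jak1 (adjusted p = 0.0548) and Il2ra (adjusted p = 0.0594) did not pass. With only the groups compared in the fit, Tyk2 (adjusted p = 0.0551), Jak1 (adjusted p = 0.0736) and Il2ra (adjusted p = 0.111) did not pass, and Il2ra did not with libraries 2 and 3 alone (adjusted p = 0.122).

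In the RARa403 comparisons 0 genes of the signalling and target lists passed, where 0% of all genes did. The IL-12 and IL-18 target list had a median of −0.65 in liver ILC1s and −0.52 in spleen ILC1s, against 0.00 for all genes in both. In liver ILC1s the genes of this list with the smallest p encode chemokines. Ccl4 was at 6.71 ± 0.65 log2 CPM in RARa403 and 8.90 ± 1.26 in control liver ILC1s (SD, n = 3), a log2 difference of −2.49 (SE 0.83, adjusted p = 1), and Ccl3 differed by −2.18 (SE 0.77, adjusted p = 1). DESeq2 called neither in liver ILC1s (adjusted p = 0.275 for Ccl4 and 0.484 for Ccl3), and edgeR without the filter on low counts called both (adjusted p = 1.67e-05 and 0.0451). With libraries 2 and 3 alone the differences were −1.34 for Ccl4 and −1.33 for Ccl3. In spleen ILC1s Gadd45b, which links these cytokines to p38 signalling, differed by −1.60 (SE 0.45, adjusted p = 1) and Ccl4 by −2.16 (SE 0.82, adjusted p = 1). Ccl4 was called there without the filter (adjusted p = 0.00112), and was at −1.36 with libraries 2 and 3 alone. The values of these named targets lay below control where those of Il18r1 lay above it, with neither passing the filtered edgeR test. Other genes of the list differed less or in the other direction. Ifng differed by −0.01 (SE 0.49) in liver and −0.44 (SE 0.50) in spleen ILC1s, and Il2ra by 0.04 (SE 1.10) and 1.45 (SE 1.13). The interferon-γ list had medians of −0.24 in liver and −0.33 in spleen ILC1s. Irf8 led it in liver (−1.20, SE 0.42, adjusted p = 1), and Gbp5 (−1.05, SE 0.56, adjusted p = 1) with Irf8 (−0.58, SE 0.42, adjusted p = 1) in spleen. Cxcl9, a chemokine gene, had 0 to 31 counts in control liver ILC1s and 0 in all 3 RARa403 libraries (adjusted p = 1). Of the signalling proteins, with medians of 0.08 in liver and −0.01 in spleen, the smallest p belonged to Tab1 (−1.06, SE 0.78) and Myd88 (−0.48, SE 0.27), the adaptor of the IL-18 receptor, in liver, and to Ikbkb (−0.65, SE 0.46) in spleen, each with adjusted p = 1.

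Over the 17 libraries other than liver NK RARa403 library 1, the patterns of the receptor genes were compared with those of 8199 protein-coding genes and with each other. These correlations describe libraries that share cell types and genotypes and carry no test. Il18rap was most like Eomes (r = 0.95), Scimp (r = 0.94) and Klf12 (r = 0.93), and Il10ra most like Plek (r = 0.94), H2afz (r = 0.92) and the perforin gene Prf1 (r = 0.89). Il27ra was most like Hvcn1 and Socs2 (r = 0.91 each) and Spint2 (r = 0.90), and Il12rb1 most like Tasp1 (r = 0.92), B2m (r = 0.90) and Pglyrp2 (r = 0.89). For Il10rb the genes were Mxd1 (r = 0.89), Zfpm1 and Bid (r = 0.88 each). The likeness was lower for Il18r1, with Dmrta1 (r = 0.83), Sfi1 (r = 0.82) and Golim4 (r = 0.81), for Il12rb2, with Wdr1 (r = 0.82), Elmo2 and Ctsd (r = 0.80 each), and for Ifngr1, with Gvin1 and Anp32b (r = 0.80 each) and Gars (r = 0.79). Among the receptor genes themselves Il10ra and Il27ra were the most opposed pair (r = −0.87) and Il18rap and Il10ra the most alike (r = 0.79). The neighbours Il18r1 and Il18rap had r = 0.58, and 0.71 after group means were removed. The chains of the IL-12 receptor had r = −0.20, and 0.56 after group means were removed.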

How the data were processed

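Whole-number counts of reads per gene were deposited by the authors as 1 table of 46078 genes in 18 libraries, with no normalization. Per the submitters' processing notes, fastp 0.23.0, HISAT2 2.1.0, featureCounts from Subread 1.6.5 and the mm10 build were used. The strand setting of the counting was not stated in those notes or the labels. Symbols and coordinates came from GENCODE annotation.

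Levels are log2 CPM with TMM scaling and a prior count of 2. Differences were tested with edgeR 4.0.16 (R 4.3.3): filterByExpr with a minimum count of 10 left 14714 genes, and the quasi-likelihood test was fitted on all 18 libraries with 1 mean per group. P-values were adjusted by Benjamini-Hochberg over all genes tested, with a threshold of 0.05. The common biological coefficient of variation was 0.862. CPM per kilobase used merged exon length, and chain ratios added 0.5 CPM. The floor is 3 counts per library. It covers counting error only, since reads carry no molecular identifiers, while the tests use the spread between libraries. The procedure was tested on simulated counts with known changes.

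The 8 receptor genes and the gene lists were chosen with earlier results of these data known. All 8 were described. From each pathway list the text names genes that passed or, where none passed, those with the smallest p, and for each receptor gene the 3 protein-coding genes with the highest Pearson correlation. Ifngr2, Gt(ROSA)26Sor and the marker genes shown with counts were named after their values were seen. Some genes of the lists are not reported here.

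The replicate numbers were checked as pairs. Deviations from the group means over 5667 genes correlated between control liver ILC1 and control liver NK libraries of the same number at 0.256, 0.103 and 0.199, and between control spleen and liver ILC1 libraries at 0.162, 0.13 and 0.134. Between control spleen ILC1 and control liver NK libraries they were 0.158, 0.0612 and 0.192. In each of these comparisons the correlations between different numbers were lower. In RARa403 liver ILC1s and NK cells the values were 0.0288, 0.0479 and 0.0246, against at most 0.0199 between different numbers. From these correlations the numbers were taken to pair only the control libraries across populations. In RARa403 liver cells the values for the same number were also the higher, but all were small. They do not settle whether the RARa403 libraries are paired. RARa403 spleen ILC1s were not checked against the RARa403 liver populations. The digits of the library codes are the same across populations for each number within a genotype, in RARa403 mice as well as in controls. Whether shared digits mean the same animal is not stated in the labels. The main tests did not use the pairs, and the replicate block did. Alternatives were DESeq2 1.42.0, another scaling, no filter, only the groups compared, the replicate block, libraries 2 and 3 alone and leaving out each library. The mean RARa403 effect over both ILC1 populations was added after the data were seen.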

Additional observations from a re-analysis of the deposited data

How the results depend on the processing

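Counts of genes past the threshold depended on the tool and on single libraries, and the cause was not tested. Comparisons are listed in this order: control liver ILC1s against NK cells, the same in RARa403 mice, the mean of both genotypes, control spleen ILC1s against liver ILC1s, control spleen ILC1s against liver NK cells, RARa403 against control in liver ILC1s, in liver NK cells and in spleen ILC1s, the interaction of liver ILC1s with NK cells, that of spleen with liver ILC1s, and the added mean over ILC1s. EdgeR called 89, 59, 307, 0, 46, 0, 0, 0, 0, 0 and 0 genes in these. DESeq2 called 419, 554, 825, 26, 312, 33, 153, 20, 43, 18 and 42. Without the filter on low counts edgeR called 355, 794, 966, 78, 316, 43, 523, 32, 268, 41 and 77.

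Of the 8 receptor genes DESeq2 called 5 in control liver ILC1s against NK cells, 2 in RARa403 mice, 5 in the mean of both genotypes, 4 in spleen ILC1s against NK cells, 1 in liver ILC1s with RARa403 and 1 in the added mean. Without the filter 3 were called in control liver ILC1s against NK cells, 4 in the mean of both genotypes, 1 in spleen ILC1s against NK cells and 1 in the added mean. With only the groups compared, the genes called were 343, 0 and 174 in the first 3 comparisons and 92 in spleen ILC1s against NK cells, and the receptor genes called were 5, 0 and 2 in the first 3 and 1 in the last. In the mean of both genotypes these 2 were Il12rb1 and Il10ra, so the calls of Il18rap and Il27ra were lost. RLE scaling gave 2 in that comparison, without Il27ra.

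With the replicate block, 1 of 8 receptor genes was called in control liver ILC1s against NK cells (Il10ra), and the block gave 34 genes in RARa403 liver ILC1s against NK cells and 25 in spleen ILC1s against NK cells. In the mean of both genotypes the block gave 2 receptor genes, without Il27ra (adjusted p = 0.0731). Apart from Il18rap in control mice and Il27ra here, it changed no call of a receptor gene in the 11 comparisons.

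With libraries 2 and 3 alone, 221, 162 and 590 genes passed in the first 3 comparisons, with 4, 2 and 6 receptor genes, and 1 receptor gene passed in spleen ILC1s against NK cells. RARa403 then gave 1 gene in liver ILC1s, 2 in liver NK cells, 1 in spleen ILC1s and 5 in the added mean.

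Leaving out 1 library gave 18 to 290 genes and 0 to 4 receptor genes in control liver ILC1s against NK cells, 18 to 254 genes and 0 to 1 receptor genes in RARa403 mice, 160 to 503 genes and 1 to 5 receptor genes in the mean of both genotypes, and 7 to 154 genes and 0 to 4 receptor genes in spleen ILC1s against NK cells. It gave 0 to 1 genes in spleen against liver ILC1s, in RARa403 liver ILC1s and in the first interaction, 0 to 2 in RARa403 NK cells and 0 to 3 in the added mean.

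The sign turned only in small or sparse differences that had not passed. For RARa403 in liver NK cells Il12rb2 was 0.08 by DESeq2, 0.08 with RLE scaling, 0.03 without the filter and 0.02 with only the groups compared, and without the filter Il12rb1 in spleen ILC1s was 0.00. With libraries 2 and 3 alone, the turned values were −0.17 for Il10rb in liver ILC1s, 0.35 for Il27ra in spleen ILC1s, 0.27 for Il12rb2 and 0.53 for Il27ra in the first and second interaction, and 0.09, 0.19 and 0.08 for Il12rb1, Il12rb2 and Il27ra in the added mean. Leaving out 1 library gave ranges across 0. In liver ILC1s with RARa403 these were −0.12 to 0.11 for Il10rb, −0.32 to 0.03 for Il27ra and −6.84 to 0.00 for Cxcl9. In liver NK cells they were −0.37 to 0.25 for Il18r1, −0.07 to 0.14 for Il18rap, −0.44 to 0.19 for Il12rb2 and −0.27 to 0.16 for Il10ra. In spleen ILC1s they were −0.05 to 0.47 for Il18rap, −0.37 to 0.61 for Il12rb1 and −0.43 to 0.15 for Il27ra. In the added mean they were −0.49 to 0.07 for Il12rb1, −0.17 to 0.07 for Il12rb2, −0.01 to 0.13 for Il10ra and −0.27 to 0.02 for Il27ra. The first interaction gave −0.55 to 0.12 for Il12rb2, and the second −0.31 to 0.27 for Il27ra and −0.29 to 0.05 for Ifngr1. Liver ILC1s against NK cells gave −0.22 to 0.16 for Il18r1 and −0.11 to 2.35 for Il18bp in the mean of both genotypes and −0.36 to 0.07 for Ifngr1 in RARa403 mice. Spleen against liver ILC1s gave −0.11 to 0.10 for Ifngr1 and −0.32 to 0.15 for Il27ra.

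With 3 libraries per group from 200 cells each, the tests resolve only differences well above the spread between libraries, so a value that did not pass does not show equal expression.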
